A study of Caenorhabditis elegans with 15 samples.

Results

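The genes described here are 10 genes of the growing oocyte and its eggshell in the nematode Caenorhabditis elegans: oma-1, oma-2, puf-5, puf-11, cbd-1, perm-2, perm-4, egg-1, egg-2 and chs-1. They were picked out by gene name, with earlier results of these data known, and all 10 were found among the 20541 protein-coding genes of the count table. RNA was sequenced from whole hermaphrodites of the wild-type strain N2, which had been synchronized as L1 larvae, fed for 34 h and then kept for 12 h with ursolic acid (UA, a plant triterpenoid) at 50 µM, with its vehicle dimethylsulfoxide (DMSO), or with neither (untreated). Each of these 3 groups had 5 libraries, and the labels place 1 library of each group in each of 5 numbered batches. The labels give the animals as L4 larvae at harvest. They do not say whether a batch was a culture, a harvest or a library preparation, so these cannot be told apart. In the main fit the p-values rest on the spread left between these libraries after batch and treatment. Those for batch compare only these 5 batches. In RNA from whole animals, fewer oocytes and less RNA per oocyte cannot be told apart.

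In the hermaphrodite gonad, germ cells first become sperm during larval development, and the germline then switches to oocytes around the change from the last larval stage to the adult. A growing oocyte stores messenger RNAs for the embryo and holds many of them silent with RNA-binding proteins, among them the OMA zinc-finger proteins and the Pumilio-family PUF proteins. It also begins to make the outer coats of the egg before fertilization. The vitelline layer is assembled around the oocyte from secreted proteins, and EGG-1 and EGG-2 sit in the oocyte membrane. A chitin layer is added once a sperm has entered. The questions put to these genes were how far their levels differed between batches, as a sign of how far oogenesis had started, and whether they differed between untreated, DMSO and UA animals within batches.

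Total counts per library ranged from 12485842 to 27474535, and the UA library of batch 5 was the lowest. The lowest count of any of the 10 genes in any library was 58, for perm-2 in that library, so each gene was measured in every library and all 10 passed the filter on low counts, as did 14037 of the 20541 genes. Levels are given as CPM (counts scaled to a fixed library total, with TMM factors that correct for composition). No library of a group was a copy of another. Genes first transcribed in embryos, among them the endoderm gene end-1, were close to absent. The 9 genes of that list together had 1 to 12 counts per library, and pes-10 had no count in any library. The adult collagen col-19 was detected throughout, at a mean of 204 CPM in batch 1 and 7.497 CPM in batch 3.

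The members lie on 5 chromosomes of the WBcel235 assembly, and positions are for the whole gene. The RNA-binding protein genes are oma-1 (WBGene00003864, IV:8888976-8890999, plus strand), oma-2 (WBGene00003865, V:8029439-8031214, plus), puf-5 (WBGene00004241, II:8575541-8577787, plus) and puf-11 (WBGene00022257, IV:6421585-6423497, plus). The vitelline layer genes are cbd-1 (WBGene00010351, IV:11372991-11377627, plus), perm-2 (WBGene00016636, IV:1126790-1128865, plus) and perm-4 (WBGene00016638, IV:1121494-1125107, minus). The oocyte membrane genes are egg-1 (WBGene00015083, III:5728180-5730159, plus) and egg-2 (WBGene00019811, III:7058527-7060583, minus), and the chitin synthase gene is chs-1 (WBGene00000496, I:7554855-7559916, plus). perm-2 and perm-4 are neighbours that point away from each other, with 1682 bp and 0 annotated genes between them. The exons of perm-2 overlap those of C44B12.6 on the other strand by 25 bp, those of egg-1 overlap B0244.9 on the other strand by 42 bp, and those of chs-1 overlap T25G3.3 on the same strand by 5 bp, so reads in these short stretches are uncertain.

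Scaled to exon length and averaged over the 15 libraries, perm-4 had the highest level of the members, at 56.7 CPM per kb, followed by perm-2 at 29.6 CPM per kb. cbd-1, oma-1, puf-11 and egg-1 lay between 11.6 and 19.9 CPM per kb. oma-2, puf-5, chs-1 and egg-2 were the lowest, between 6.42 and 8.995 CPM per kb. These means hide the spread described next, since every member varied between batches far more than between treatments.

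All 10 genes followed the same order of batch means, with batch 1 highest and then batches 4, 2, 3 and 5. That order was found for 7.91% of all tested genes. All 10 differed between batches in edgeR's quasi-likelihood test of the 4 batch coefficients together (Benjamini-Hochberg adjusted p below 0.02), as did 53.0% of all tested genes. Between the ends of the order, all 10 were higher in batch 1 than in batch 5, a call made for 23.4% of all tested genes. Their log2 differences between these batches, as fitted by edgeR, ran from 0.79 for oma-1 to 2.86 for perm-2. As differences in mean log2 CPM, the median of all tested genes was -0.0051. By that measure 11.6% of them were at or above the smallest member, oma-1 at 0.78. The order was kept by 9 of the 10 genes among the untreated libraries alone, by 9 among the DMSO libraries and by 8 among the UA libraries. The exceptions were perm-2 in untreated libraries, oma-1 in DMSO libraries, and oma-1 and cbd-1 in UA libraries, each with a pair of neighbouring batches exchanged.

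**Figure D1:**
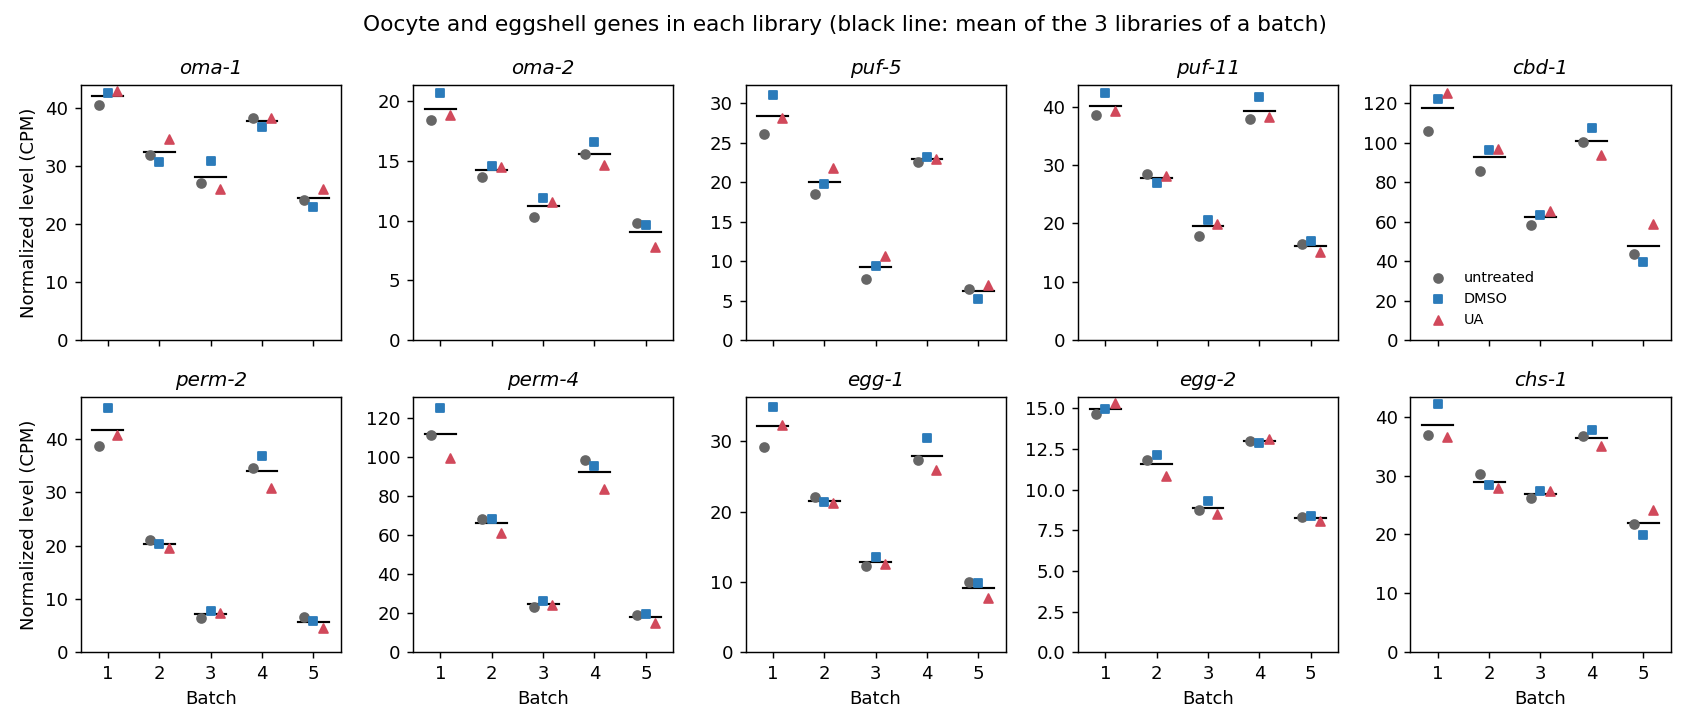
Normalized level (CPM, linear axis from 0) of each of the 10 genes in each of the 15 libraries by batch, with untreated, DMSO and UA libraries as circles, squares and triangles and the mean of the 3 libraries of a batch as a black line. Every gene is highest in batch 1 and lowest in batch 5 by its mean, and the spread between batches exceeds that between treatments, with perm-2 ranging from 45.8 to 4.56 CPM.

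Among the genes of the vitelline layer, perm-2 and perm-4 varied most. Both encode proteins of this outermost layer of the eggshell and were first known for the leaky eggs left by their loss. perm-2 measured 38.7, 45.8 and 40.7 CPM in the untreated, DMSO and UA libraries of batch 1, then 34.5, 36.7 and 30.8 CPM in batch 4, 21.04, 20.4 and 19.4 CPM in batch 2, 6.34, 7.68 and 7.44 CPM in batch 3, and 6.52, 5.77 and 4.56 CPM in batch 5. Libraries of batches 1, 4 and 2 did not overlap those of any other batch, whereas batches 3 and 5 overlapped. The mean went from 41.7 ± 3.64 CPM (SD, n = 3) in batch 1 to 5.62 ± 0.992 CPM (SD, n = 3) in batch 5, a 7.43-fold difference with a log2 difference of 2.86 (SE 0.093). perm-4, in the same libraries, measured 111, 125 and 99.96 CPM in batch 1, 98.5, 95.8 and 83.7 CPM in batch 4, 68.6, 68.4 and 61.3 CPM in batch 2, 23.4, 26.4 and 24.3 CPM in batch 3, and 19.1, 19.7 and 14.9 CPM in batch 5. No library of a batch overlapped the next batch in the order. The mean of perm-4 was 6.28 times higher in batch 1 than in batch 5, a log2 difference of 2.64 (SE 0.064). The third gene of this layer, cbd-1, encodes a secreted chitin-binding protein on which the assembly of the layer depends. It measured 106, 122 and 125 CPM in batch 1, 100.5, 107 and 94.0 CPM in batch 4, 85.5, 96.5 and 96.6 CPM in batch 2, 58.2, 63.1 and 65.4 CPM in batch 3, and 43.8, 39.6 and 58.9 CPM in batch 5. Its range was smaller, with 2.48 times more in batch 1 than in batch 5 (log2 difference 1.33, SE 0.088), and neighbouring batches overlapped except for batches 2 and 3.

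The RNA-binding protein genes fell into a wide and a narrow range. puf-5 encodes a Pumilio-family protein needed in late oogenesis, and it measured 26.04, 31.0 and 28.1 CPM in the untreated, DMSO and UA libraries of batch 1, 22.6, 23.1 and 23.0 CPM in batch 4, 18.5, 19.7 and 21.8 CPM in batch 2, 7.69, 9.33 and 10.7 CPM in batch 3, and 6.52, 5.21 and 6.92 CPM in batch 5. It was 4.57 times higher in batch 1 than in batch 5 (log2 difference 2.20, SE 0.10), and no neighbouring batches overlapped. puf-11, of the same family and closely related to puf-3, measured 38.6, 42.4 and 39.3 CPM in batch 1, 37.8, 41.7 and 38.2 CPM in batch 4, 28.5, 26.9 and 28.0 CPM in batch 2, 17.8, 20.6 and 19.9 CPM in batch 3, and 16.4, 16.9 and 15.2 CPM in batch 5. Batches 1 and 4 overlapped for puf-11, and the others did not. Its batch 1 mean was 2.48 times that of batch 5 (log2 difference 1.301, SE 0.063). The OMA proteins, which act redundantly in oocyte maturation, had genes with smaller ranges. oma-1 measured 40.5, 42.5 and 42.9 CPM in batch 1, 38.1, 36.7 and 38.3 CPM in batch 4, 31.8, 30.6 and 34.6 CPM in batch 2, 27.1, 30.9 and 26.01 CPM in batch 3, and 24.2, 23.0 and 26.1 CPM in batch 5. Batches 2 and 3, and batches 3 and 5, overlapped, and batch 1 was 1.72 times higher than batch 5 (log2 difference 0.79, SE 0.067). oma-2 was lower, at 19.4 ± 1.21 CPM (SD, n = 3) in batch 1, 15.6 ± 0.963 CPM (SD, n = 3) in batch 4, 14.3 ± 0.511 CPM (SD, n = 3) in batch 2, 11.2 ± 0.842 CPM (SD, n = 3) in batch 3 and 9.07 ± 1.12 CPM (SD, n = 3) in batch 5. Its libraries did not overlap between neighbouring batches, and the difference between batches 1 and 5 was 2.13-fold (log2 difference 1.07, SE 0.082).

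EGG-1 and EGG-2 are LDL-receptor-repeat proteins of the oocyte membrane that are needed at fertilization, and their genes differed in range. egg-1 measured 29.3, 34.95 and 32.4 CPM in the untreated, DMSO and UA libraries of batch 1, 27.4, 30.5 and 25.9 CPM in batch 4, 22.05, 21.4 and 21.2 CPM in batch 2, 12.3, 13.5 and 12.6 CPM in batch 3, and 9.94, 9.83 and 7.78 CPM in batch 5. It was 3.51 times higher in batch 1 than in batch 5 (log2 difference 1.79, SE 0.080), with overlap between batches 1 and 4 only. egg-2 was 14.96 ± 0.346 CPM (SD, n = 3) in batch 1, 12.99 ± 0.129 CPM (SD, n = 3) in batch 4, 11.6 ± 0.661 CPM (SD, n = 3) in batch 2, 8.86 ± 0.387 CPM (SD, n = 3) in batch 3 and 8.25 ± 0.138 CPM (SD, n = 3) in batch 5. Neighbouring batches did not overlap, yet the whole range was 1.81-fold (log2 difference 0.86, SE 0.077). chs-1 encodes the chitin synthase that makes the chitin of the eggshell. It was 38.6 ± 3.17 CPM (SD, n = 3) in batch 1, 36.5 ± 1.38 CPM (SD, n = 3) in batch 4, 28.9 ± 1.26 CPM (SD, n = 3) in batch 2, 26.9 ± 0.691 CPM (SD, n = 3) in batch 3 and 22.002 ± 2.12 CPM (SD, n = 3) in batch 5. The difference between batches 1 and 5 was 1.75-fold (log2 difference 0.82, SE 0.072).

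Not every step of the order was past the threshold for every gene. From batch 1 to batch 4, 3 of the 10 were called higher in batch 1 (oma-2, perm-2 and perm-4), against 2.08% of all tested genes, and puf-11 differed by 0.030 on the log2 scale. From batch 4 to batch 2, 6 were called higher in batch 4, against 12.9% of all tested genes, with perm-2 differing most (log2 difference 0.74, SE 0.077). oma-2, puf-5, cbd-1 and egg-2 were not told apart between these batches. The step from batch 2 to batch 3 had the largest median log2 difference, at 0.55, and 8 members were called higher in batch 2, against 9.81% of all tested genes. perm-2 differed there by 1.51 (SE 0.095), perm-4 by 1.42 (SE 0.062) and puf-5 by 1.12 (SE 0.098) on the log2 scale, whereas oma-1 (0.21, SE 0.068) and chs-1 (0.10, SE 0.072) did not pass the test. From batch 3 to batch 5, 7 were called higher in batch 3, against 12.5% of all tested genes, and oma-1, perm-2 and egg-2 were not.

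**Figure D2:**
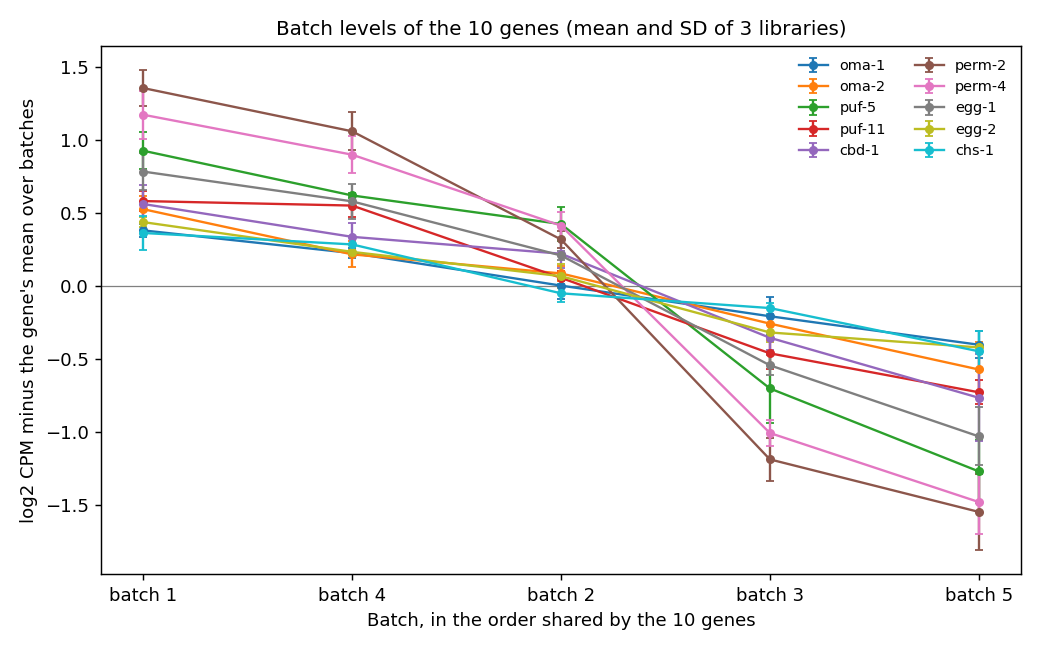
Mean log2 CPM of each of the 10 genes in each batch minus the mean of that gene over the 5 batches (error bars, SD of the 3 libraries), with batches in the order 1, 4, 2, 3, 5. All lines fall from left to right, perm-2, perm-4 and puf-5 over the widest range and oma-1, egg-2 and chs-1 over the narrowest.

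Batch took up 93.1% (cbd-1) to 98.8% (perm-2) of the sum of squares of log2 CPM over the 15 libraries, and treatment took up 0.0551% (chs-1) to 2.19% (cbd-1). The medians over all tested genes were 65.6% for batch and 6.23% for treatment. The 5 other genes whose profile over the 15 libraries came closest to the mean profile of the members, by root mean square difference on the log2 scale, were rmd-1 (0.0739), F22B3.4 (0.0757), cpg-1 (0.0849), D1086.10 (0.0904) and C33F10.1 (0.0911). cpg-1 encodes a chondroitin proteoglycan of the eggshell, and rmd-1 a regulator of microtubule dynamics. The members themselves were 0.111 (puf-11) to 0.579 (perm-2) away from their own mean profile, and the median of all tested genes was 0.617. Each member is part of that mean profile, so its distance is in part small by construction.

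Other genes of oogenesis were read from lists of their own. Of 12 other genes of the eggshell and of egg activation, 11 differed between batches (53.0% of all tested genes did). The order of the members was found for 5 of the 12 (7.91% of all tested genes), and the median log2 difference between batches 1 and 5 was 0.95. Of the 11, 10 were lower in batch 5 than in batch 1, and egg-6 was higher there by its mean (log2 difference -0.20). Small differences were found for perm-3 (0.063, not past the threshold), perm-5 (0.22) and mbk-2 (0.30). The proteoglycan gene cpg-3 had the widest range, from 35.1 CPM in batch 1 to 7.49 CPM in batch 5, and cpg-2 went from 137 to 37.98 CPM, cpg-1 from 67.3 to 20.2 CPM and perm-1 from 17.5 to 7.13 CPM. Of 13 other oocyte regulators, all 13 differed between batches and 11 had the same order, with a median of 0.92. Among them were puf-3 (43.7 CPM in batch 1 and 13.2 CPM in batch 5), the yolk receptor gene rme-2 (62.96 and 21.4 CPM), pos-1 (29.7 and 10.02 CPM) and mex-6 (32.6 and 13.4 CPM). lin-41 had the smallest log2 difference between batches 1 and 5 of these regulators, at 0.26. The members had a median of 1.32 by the same measure.

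Genes acting before or at the end of oogenesis were read in the same way. Of 20 genes of the mitotic and meiotic germline, 17 differed between batches (53.0% of all tested genes did). The order of the members was found for 3 of them, against 7.91% of all tested genes. Their median log2 difference between batches 1 and 5 was 0.24. Among them the germ granule gene pgl-1 had 475 CPM in batch 1 and 359 CPM in batch 5, and glh-2, another germ granule gene, had 73.3 and 44.2 CPM. Of 8 cell cycle genes of oocyte maturation, 6 differed between batches and 3 had the order of the members, with a median log2 difference of 0.32. cyb-1, a cyclin B gene, went from 154 to 80.9 CPM, while cdc-25.2, a phosphatase gene that activates the maturation kinase, ran the other way, from 12.1 CPM in batch 1 to 16.9 CPM in batch 5.

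Markers of other cells moved with the batches as well. Of 39 sperm genes tested, 37 differed between batches, where 53.0% of all tested genes did. The order of the members was found for 25 of them, against 7.91% of all tested genes. Their median log2 difference between batches 1 and 5 was 1.46, and their summed level ranged from 617 to 1876 CPM over the libraries. Most are major sperm protein genes, near-identical copies among which reads can be split, and msp-76 went from 87.7 to 26.1 CPM. All 6 genes of the yolk proteins, made in the adult intestine, differed between batches, with a median of 3.46, and vit-2 went from 1006 to 117 CPM. Only 2 of the 6 had the order of the members. vit-5 was lowest in batch 3, at 2.55 CPM beside 5.14 CPM in batch 5. The summed level of the 6 yolk protein genes ranged from 314 to 3148 CPM over the libraries. All 6 adult cuticle genes differed as well (median 2.55), but in mixed directions and none in the order of the members. The collagen genes col-7, col-19, col-62 and col-63 were higher in batch 1 than in batch 5, by 1.82 to 3.86 on the log2 scale, and bli-1 (-0.20) and bli-2 (-0.074) were lower by their means. col-19 was lowest in batch 3 and not in batch 5. The 4 moulting genes differed between batches in mixed directions (median -0.017), with mlt-11 at 733 CPM in batch 1 and 1234 CPM in batch 5. Of 7 genes of the gonadal sheath and spermatheca 4 differed between batches, near the 53.0% of all tested genes, and the median log2 difference between batches 1 and 5 was 0.20. sth-1, a spermatheca gene, stood apart in this list, from 18.9 to 4.66 CPM, while the others lay between -0.15 and 0.56 on the log2 scale. The part of developmental stage, of the number of germ cells or of other tissues in the batch differences of the 10 genes was not tested.

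**Figure D3:**
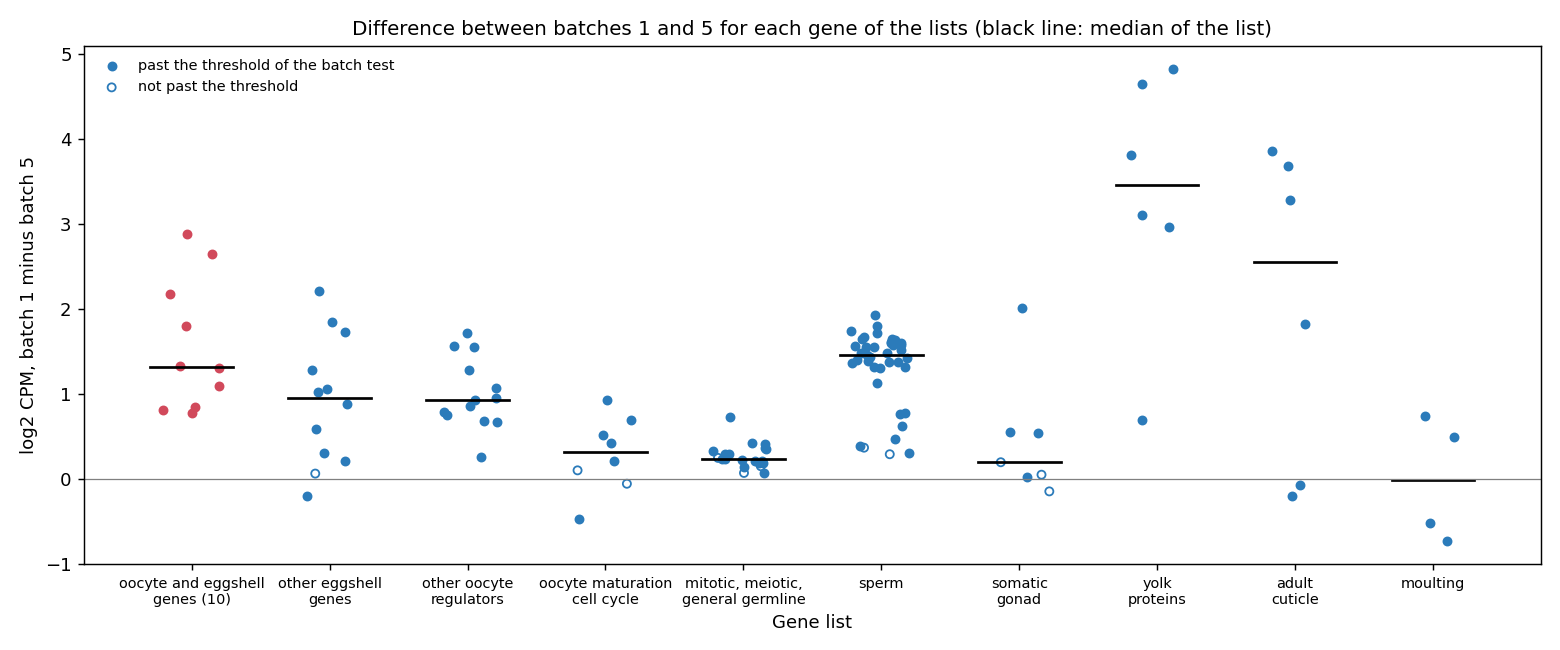
Difference in mean log2 CPM between batch 1 and batch 5 for each tested gene of 10 lists, with filled points for genes past the threshold of the batch test, open points for the others and a black line for the median of the list. The 10 oocyte and eggshell genes (red) all lie above 0 with a median of 1.32, near the sperm genes (1.46), above the mitotic and meiotic germline genes (0.24) and below the yolk protein genes (3.46).

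Treatment moved these genes little beside the batches. None of the 10 was called between UA and DMSO by edgeR at an adjusted p below 0.02, where 0.271% of all tested genes (38) were called. At an unadjusted p under 0.05 in edgeR there were 3, perm-2, perm-4 and egg-1, all lower in UA, where 14% of all tested genes were below it. DESeq2 called 1, perm-4, and 0.435% of all tested genes. The fitted log2 fold changes of the members ran from -0.23 to 0.072 with standard errors from 0.047 to 0.072, and their median was -0.058, beside -0.0013 over all tested genes.

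perm-4 came closest to the threshold. In batches 1 to 5 its DMSO libraries measured 125, 68.4, 26.4, 95.8 and 19.7 CPM, and its UA libraries 99.96, 61.3, 24.3, 83.7 and 14.9 CPM. UA was the lower library in each of the 5 batches, although the groups overlapped widely when batches were ignored. The differences within batches 1 to 5 were -0.33, -0.16, -0.12, -0.19 and -0.40 on the log2 scale. The fitted log2 fold change was -0.23 (SE 0.047), with an adjusted p of 0.0285 by edgeR, just above the threshold, and of 0.0084 by DESeq2, below it. Over 20 edgeR fits that each left out 1 library or 1 batch the change stayed between -0.26 and -0.20, and the adjusted p passed the threshold in 4, without UA batch 3 (0.0101), untreated batch 3 (0.0176), untreated batch 4 (0.0184) or the whole of batch 4 (0.0196), and was at most 0.157. Without the batch term the adjusted p by edgeR was 0.9999. The neighbouring gene perm-2 was lower in UA in each batch too, with log2 differences from -0.33 to -0.045, but its fitted change of -0.16 (SE 0.066) had an adjusted p of 0.279 by edgeR.

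Besides these, oma-2 and egg-1 were lower in UA than in DMSO in all 5 batches, so 4 of the 10 genes were, against 5.98% of all tested genes, with oma-2 at -0.0022 in batch 2. Over the 5 batches oma-2 differed by -0.12 (SE 0.062) and egg-1 by -0.14 (SE 0.059) on the log2 scale, with adjusted p by edgeR of 0.412 and 0.298. cbd-1 and puf-5 did not share this direction, with fitted changes of 0.072 (SE 0.067) and 0.065 (SE 0.072). The fitted changes of oma-1, puf-11, egg-2 and chs-1 lay between -0.073 and 0.034. The batches also differed from each other in their spread, as in batch 5, where UA against DMSO was 0.57 for cbd-1, 0.40 for puf-5 and 0.28 for chs-1 but -0.40 for perm-4, -0.33 for perm-2 and -0.33 for egg-1. That UA library had the fewest reads, and the part of depth in these differences was not tested.

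**Figure D4:**
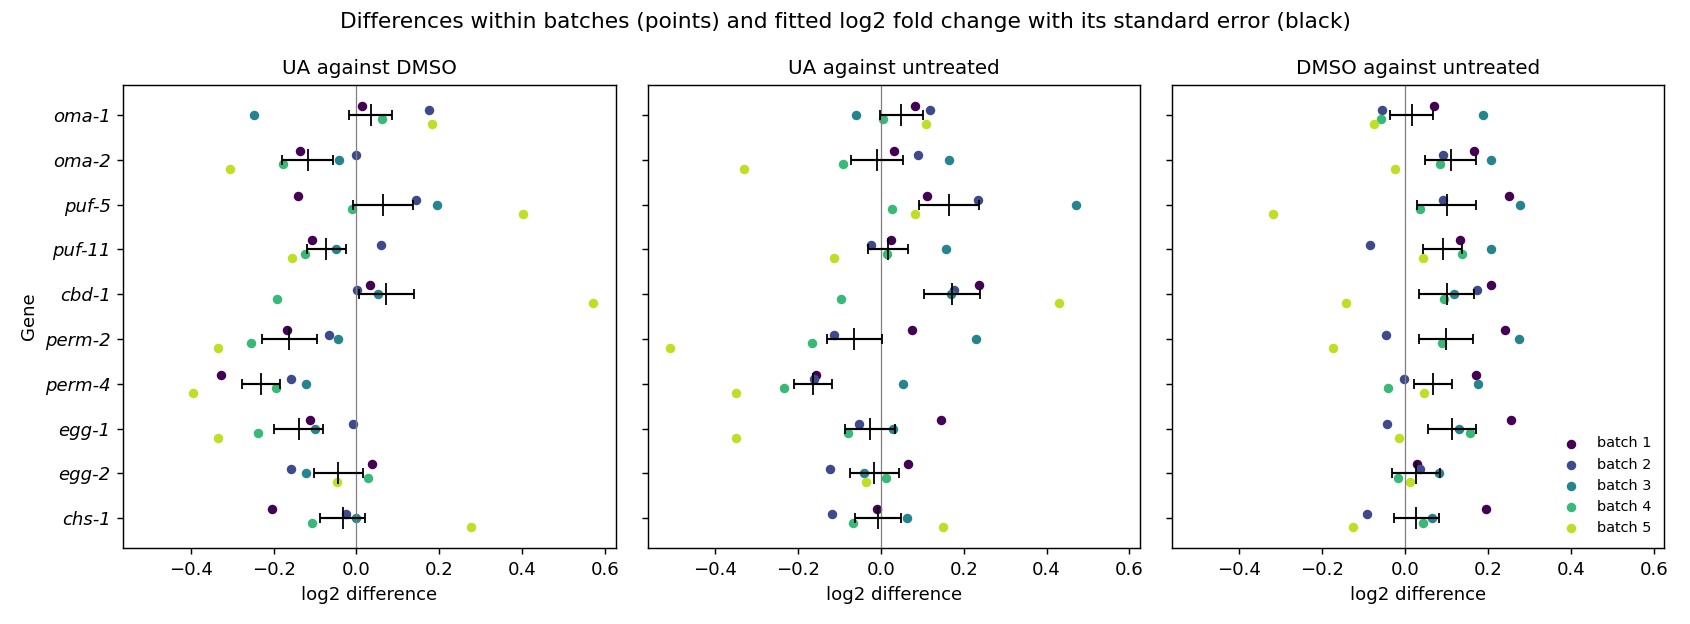
Log2 differences of the 10 genes between UA and DMSO, UA and untreated, and DMSO and untreated within each batch (coloured points) and the fitted log2 fold change with its standard error (black). For UA against DMSO, oma-2, perm-2, perm-4 (fitted -0.23) and egg-1 lie below 0 in all 5 batches. For UA against untreated, puf-5 lies above 0 in all 5, and most of the other points scatter on both sides of 0.

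Against untreated animals, UA again left all 10 genes uncalled by edgeR, where 1.05% of all tested genes (147) were called. The members with an unadjusted p under 0.05 in edgeR were 3, puf-5, cbd-1 and perm-4, where 12.3% of all tested genes were below it. DESeq2 called 0 of the 10, and 1.10% of all tested genes. perm-4 was at -0.16 (SE 0.047, edgeR adjusted p 0.0980), puf-5 at 0.16 (SE 0.073) and cbd-1 at 0.17 (SE 0.067) on the log2 scale. puf-5 was higher in UA than in untreated animals in each of the 5 batches, by 0.026 to 0.47, the only 1 of the 10 to be so, where 6.06% of all tested genes were. cbd-1 measured 106, 85.5, 58.2, 100.5 and 43.8 CPM in the untreated libraries of batches 1 to 5 and 125, 96.6, 65.4, 94.0 and 58.9 CPM in the UA libraries, higher in UA in each batch except batch 4. When the UA library of batch 4 was left out, the change of cbd-1 was 0.24 with an edgeR adjusted p of 0.0192. That was the only 1 of 29 alternatives in which cbd-1 passed the threshold. In the same fit 396 of 14014 tested genes were called, beside 147 in the main fit. The median of the members was -0.0077 beside 0.0037 over all tested genes. Above 0 were 4 of the 10, beside 7308 of the 14037 tested genes.

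DMSO against untreated gave 0 calls among the 10 genes by edgeR, 0 by DESeq2 and 0 at an unadjusted p under 0.05, where the shares of all tested genes were 0.121% (17 genes), 0.185% and 7.91%. All 10 fitted changes were above 0, as were 7549 of the 14037 tested genes, although those of oma-1 and chs-1 turned below 0 in some fits that left out a library or a batch, and they ran from 0.016 for oma-1 to 0.11 for egg-1 with a median of 0.094 beside 0.0063 over all tested genes. The batches did not share this direction. DMSO was higher than untreated for 10 of the 10 genes in batch 1 and for 10 in batch 3, where 52.6% and 50.3% of all tested genes were higher. It was higher for 4, 7 and 3 of the 10 in batches 2, 4 and 5. The shares of all tested genes there were 52.1%, 52.1% and 52.2%. The DMSO libraries stand in both this comparison and that of UA with DMSO, so a high DMSO value enters them with opposite signs. In group means, perm-4 was 64.2 ± 42.2 CPM (SD, n = 5) in untreated, 67.1 ± 45.1 CPM (SD, n = 5) in DMSO and 56.8 ± 36.8 CPM (SD, n = 5) in UA animals, and these SDs are mostly the spread between batches.

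Among the lists, UA against DMSO gave 0 calls by edgeR and 0 by DESeq2 for the other eggshell genes (2 of 12 at an unadjusted p under 0.05) and for the other oocyte regulators (0 of 13). Sperm genes had 0 calls by either tool as well. Of the 39, 22 had an unadjusted p under 0.05 in edgeR, beside 14% of all tested genes. Above 0 were 6 of the 39, beside 6939 of the 14037 tested genes, and their median log2 change was -0.12. Yolk protein genes were the exception against untreated animals. vit-2 (log2 fold change -0.46, edgeR adjusted p 0.00286) and vit-6 (-0.38, edgeR adjusted p 0.0129) were lower in UA than in untreated animals, 2 of 6 beside 1.05% of all tested genes, and DESeq2 called 1 of the 6. Their changes between UA and DMSO were -0.21 and -0.13, and those between DMSO and untreated were -0.25 and -0.25, none past the threshold. The part of these other cell types in the values of perm-4 was not tested.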

How the data were processed

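Per the labels and the study's methods, poly-A RNA was made into libraries with a stranded kit, single-end reads were mapped to WBcel235 with STAR 2.5.2b, and the authors deposited the raw counts per gene from featureCounts 1.5.2. The strand setting, and how multimapping reads were counted, are not given in the sources used here, so genes with close copies (egg-1 and egg-2, oma-1 and oma-2, puf-3 and puf-11) may share reads.

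Genes with at least 10 counts in 1 library and 1 CPM in at least 3 libraries were kept. All 15 libraries were fitted together in edgeR 4.0.16 (R 4.3.3; TMM, quasi-likelihood F test, terms for treatment and batch) on the counts as deposited, with Benjamini-Hochberg adjustment over all tested genes and calls at a false discovery rate of 0.02. The batch effect was tested on 4 coefficients together and on each of 10 pairs of batches, each adjusted separately over genes. The study's methods name no batch term. It was used because the labels number shared batches: within a batch, deviations of libraries from their group means correlated across genes at 0.413 to 0.844, and in 15 of 15 pairs of groups within a batch this was above the correlation with any other batch. Standard errors were derived from the F statistics. DESeq2 1.42.0, other scaling and filters, no batch term, fits of 2 groups and leave-one-out fits were the alternatives. Fits were also run on simulated counts, and the outcome of those runs is not reported here.

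Positions and exon lengths are from the Ensembl release 115 annotation of WBcel235, which held 20194 of the 20541 gene identifiers and all 10 members. Members and lists were chosen with earlier results of these data known. The text names all 10 members, the 5 nearest profiles and genes of the lists. Those of a list were drawn from its 4 called genes with the largest changes, and not always the largest was named. Other genes were named in describing their lists: end-1, pes-10, bli-1, bli-2, egg-6, perm-3, perm-5, mbk-2 and lin-41.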

Additional observations from a re-analysis of the deposited data

How the results depend on the processing

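All 10 genes differed between batches under each of the 28 alternatives. Between UA and DMSO the number of the 10 called moved from 0 to 1, perm-4, with DESeq2, with no filter on low counts and at a false discovery rate of 0.05, and ranged from 0 to 1 over the leave-one-out fits. Against untreated it ranged from 0 to 1 for UA (cbd-1) and was 0 in all 29 alternatives for DMSO. Counts over all genes moved more. UA against DMSO gave 38 calls, 61 with DESeq2, 71 with no filter, 77 at a false discovery rate of 0.05 and 17 (without batch 5) to 162 (without the UA library of batch 4) on leaving out. UA against untreated gave 147, 76 with only the 2 groups compared and 71 (without batch 1) to 396 (without the UA library of batch 4). DMSO against untreated gave 17, 26 with DESeq2, 35 with no filter, 30 at a false discovery rate of 0.05, 73 with only the 2 groups and 9 to 41. With no replicate block, that is without the batch term, the 3 comparisons gave 10, 12 and 0 calls, and none of the 10 genes passed in any of them.

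The direction of an uncalled change turned in some fits that left out a library or batch. Between UA and DMSO the ranges were -0.0022 to 0.10 for oma-1, -0.028 to 0.14 for cbd-1 and -0.091 to 0.019 for chs-1. Between UA and untreated they were -0.051 to 0.039 for oma-2, -0.016 to 0.041 for puf-11, -0.088 to 0.011 for egg-1, -0.045 to 0.0082 for egg-2 and -0.051 to 0.019 for chs-1. Between DMSO and untreated they were -0.042 to 0.041 for oma-1 and -0.024 to 0.073 for chs-1. Depth limits perm-2 in batch 5 most, at 58 counts in the UA library.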

Other observations

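The ratio of the normalized levels of related genes differed between batches. For egg-1 over egg-2 it averaged 2.15 in batch 1, 2.15 in batch 4, 1.86 in batch 2, 1.44 in batch 3 and 1.11 in batch 5. Single libraries reached 2.34 in batch 1 and ranged from 0.961 to 1.198 in batch 5, so egg-1 was above egg-2 in all but the UA library of batch 5. The ratio of oma-1 over oma-2 ran in the other direction, from 2.17 in batch 1 to 2.70 in batch 5, with libraries from 2.05 to 2.28 and from 2.38 to 3.35. For the neighbours perm-4 and perm-2 the ratio was 2.69 in batch 1, 2.73 in batch 4, 3.26 in batch 2, 3.46 in batch 3 and 3.19 in batch 5. These ratios are values only, with no test of their own.

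In the lists of maturation, mitotic and meiotic germline, somatic gonad, adult cuticle and moulting genes, edgeR and DESeq2 made 0 calls in any of the 3 treatment comparisons. Between UA and DMSO, an unadjusted p under 0.05 in edgeR was found for 1 of 8, 3 of 20, 2 of 7, 4 of 6 and 1 of 4 genes of these lists. The other eggshell genes and other oocyte regulators had 0 calls by both tools against untreated animals too, with UA and with DMSO, and 1 of 12 and 3 of 13 had an unadjusted p under 0.05 with UA, and 2 of 12 and 4 of 13 with DMSO. The shares of all tested genes at that unadjusted p were 14% for UA against DMSO, 12.3% for UA against untreated and 7.91% for DMSO against untreated.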
